A study of Mus musculus with 16 samples.

Results

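The glucocorticoid signalling genes described here are 10 mouse genes, taken by symbol from a table of gene counts: the receptors Nr3c1 and Nr3c2, the receptor co-chaperones Fkbp5 and Fkbp4, the steroid-converting enzymes Hsd11b1 and Hsd11b2, and the response genes Tsc22d3, Sgk1, Per1 and Zbtb16. The rule used the symbols alone and no measured value, although the members were chosen with earlier results of these data known. All 10 were among its 24539 genes, and 8 of the 10 had enough counts to be among the 13224 genes tested. Hsd11b1 and Hsd11b2 fell below the filter on low counts and were described without a test.

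The libraries came from GAD67-GFP+ cells of the cortical plate of CD1 mouse embryos at embryonic day 14.5, heterozygous for the GFP reporter, which marks cells that make the GABA-synthesising enzyme GAD67. The cells were cut out of fixed brain sections by laser where their migration had advanced furthest, and about 1000 were pooled for each embryo, with 1 male embryo taken from a litter. The vehicle non-stressed group came from dams gavaged with corn oil each morning from gestational day 11 to 14, and the cypermethrin non-stressed group from dams gavaged on the same days with 10 mg/kg of alpha-cypermethrin, a pyrethroid insecticide. The vehicle stressed and cypermethrin stressed groups received the same gavages, and the dams were in addition restrained under bright light, for 45 min at a time and 3 times a day on days 12 and 13. A final restraint on day 14 ended 15 min before the dams were killed, and the last gavage was 90 min before. Each of the 4 groups held 4 litters, and gavage itself was common to all of them.

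The total count per library ran from 2291283 to 4324129, so that 3 counts, the upper limit that a count of 0 allows, corresponded to between 0.660 and 1.42 CPM, counts scaled to a common library total; that limit covers counting error only. The library labelled vehicle stressed replicate 1 stood apart: it held 9521 counts of Xist, the RNA of the inactive X chromosome, and 1 count over the Y-linked genes examined, whereas the other 15 libraries held at most 26 counts of Xist and at least 198 CPM of the Y-linked genes, and all 16 were labelled male. The values that this library moved most are given with and without it. A code in the library descriptions split the libraries into 7 and 9, with every group in both parts. In the first part the cypermethrin non-stressed group was present by its replicate 1 alone, on which the fits within that code rest for this group. The 13 markers of GABAergic interneurons summed to between 1533 and 2518 CPM per library, 8 markers of glutamatergic neurons to between 4166 and 6976 CPM, 10 of pericytes and meninges to between 1378 and 4036 CPM, 9 of endothelial cells to between 164 and 838 CPM, and 9 of radial glia and progenitors, the cell type in the labels, to between 606 and 894 CPM. Microglial markers summed to between 42.5 and 446 CPM, and 7 erythroid markers to between 2.69 and 250 CPM. Of the erythroid markers Hbb-y had counts in 16 of 16 libraries, at a mean of 92.9 CPM, and the 4 adult globin genes had no count. Transcripts typical of other cell types were thus present in every library, and fewer cells of a type cannot be told apart from less RNA per cell in these bulk samples. The glutamatergic markers summed higher than the GABAergic ones in every library, so the levels below cannot be assigned to interneurons alone.

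Glucocorticoids, corticosterone in the mouse, are released by the adrenal gland in stress and bind a receptor that waits in the cytoplasm in a complex with HSP90 and its co-chaperones. Bound receptor moves into the nucleus and acts on genes such as Fkbp5, Tsc22d3, Per1 and Sgk1, several of which respond quickly in many tissues. Inside a cell the supply of active steroid is set by a pair of enzymes: HSD11B1 regenerates corticosterone, and HSD11B2 inactivates it and is known for shielding the fetus and the fetal brain from maternal hormone. The comparisons ask whether maternal restraint, maternal cypermethrin or their combination altered the transcripts of this pathway in these libraries of captured GAD67-GFP+ cells.

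Both receptors, both co-chaperones and all 4 response genes were detected, and the enzymes were at or near the limit of detection. Set side by side as CPM per kilobase of merged exons, Fkbp4 had the top mean level, 23.2 ± 10.1 (SD over 16 libraries here and in the next sentences), and exceeded Sgk1, at 5.61 ± 2.90, in 16 of 16 libraries. Zbtb16 followed at 4.88 ± 2.69, Fkbp5 at 3.73 ± 1.13, Per1 at 3.41 ± 1.91 and Nr3c1 at 3.29 ± 2.70. These 5 neighbours in the order did not differ beyond their spread: Sgk1 exceeded Zbtb16 in 11 of 16 libraries, Zbtb16 exceeded Fkbp5 in 10, Fkbp5 exceeded Per1 in 11 and Per1 exceeded Nr3c1 in 8. Tsc22d3 was at 2.42 ± 1.69 per kilobase, below Nr3c1 in 10 of 16 libraries and above Hsd11b2, at 0.838 ± 1.501, in 13. Nr3c2, at 0.724 ± 0.742, and Hsd11b1, at 0.265 ± 0.983, came last, and the SDs of Hsd11b2, Nr3c2 and Hsd11b1 exceeded their means.

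**Figure D1:**
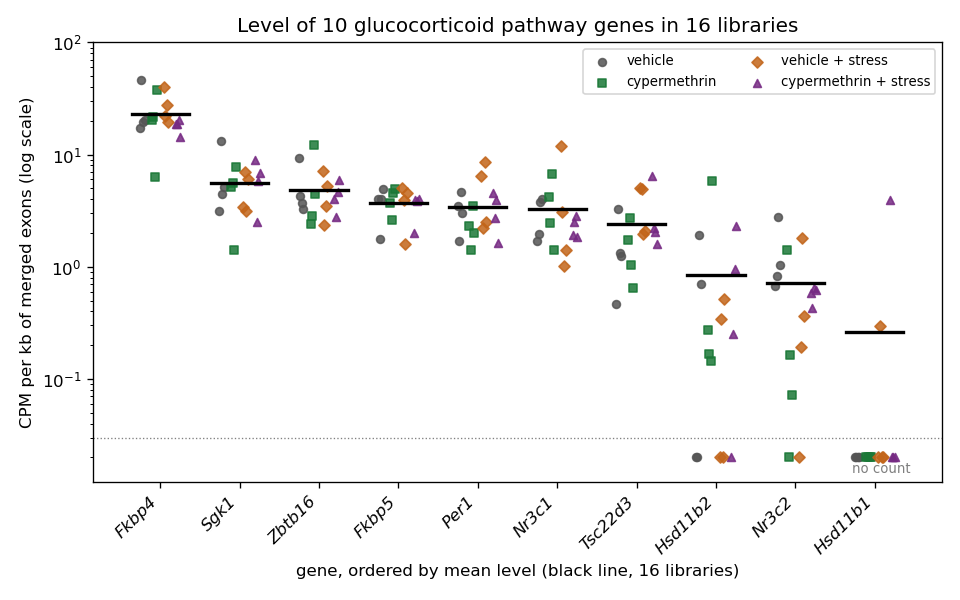
Level of each of the 10 genes in each of the 16 libraries, in CPM per kilobase of merged exons on a log axis; each point is 1 library, its shape and colour give the group, black lines are means over 16 libraries, and libraries with no count are drawn below the dotted line. Fkbp4 lies above the other genes with a mean of 23.2, and Hsd11b1 has a count in 2 of 16 libraries.

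Nr3c1 encodes the glucocorticoid receptor and spans chromosome 18, 39410545 to 39519421, minus strand (mm10; GENCODE positions here and below). It was found in every library, at 13.1, 15.0, 29.3 and 31.1 CPM in the vehicle non-stressed group and at 10.7, 18.8, 32.0 and 51.5 CPM in the cypermethrin non-stressed group. With stress it was at 7.84, 10.8, 23.5 and 91.3 CPM in the vehicle group and at 14.2, 14.7, 19.1 and 21.6 CPM in the cypermethrin group. The 91.3 CPM belonged to the library labelled vehicle stressed replicate 1, and the 4 groups overlapped throughout. The coefficient of variation of Nr3c1 was 82.0% over all 16 libraries, against a median of 50.2% over the 500 tested genes nearest in level, of which 91% varied less. That spread rested on this 1 library: over the other 15 the coefficient was 54.3%, against a median of 49.4%, and 58.8% of the nearest genes varied less.

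Nr3c2 encodes the mineralocorticoid receptor, which binds corticosterone as well as aldosterone, and lies on chromosome 8, 76899442 to 77245012, plus strand. It was scarce, with 278 counts in all and none in 2 libraries. The vehicle non-stressed libraries held 4.38, 5.34, 6.69 and 17.9 CPM, and the cypermethrin non-stressed libraries held 0, 0.467, 1.06 and 9.08 CPM. The stressed libraries held 0, 1.25, 2.36 and 11.8 CPM with vehicle and 2.77, 3.76, 3.99 and 4.195 CPM with cypermethrin. In each of the first 3 groups 1 library lay above the others, so that a group mean of this gene was set largely by a single embryo. Its locus overlaps Gm10649 on the opposite strand, a gene with 6 counts in the table.

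Fkbp5 and Fkbp4 encode FKBP51 and FKBP52, HSP90 co-chaperones with opposed actions: FKBP51 lowers the receptor's affinity for hormone, and FKBP52 aids its transport to the nucleus. Fkbp5 is itself a glucocorticoid response gene, and lies on chromosome 17, 28399094 to 28517527, minus strand. It was at 16.8, 38.4, 38.4 and 46.6 CPM in the vehicle non-stressed group, 24.7, 35.3, 43.3 and 47.2 CPM with cypermethrin, 15.0, 37.6, 42.7 and 48.0 CPM with stress, and 19.1, 36.4, 37.1 and 38.1 CPM with both. The group means of Fkbp5 accordingly lay close together, between 32.7 ± 9.11 and 37.6 ± 9.94 CPM (SD, n = 4), and 3 of the 4 groups had a single library under 20 CPM. It was the steadiest of the tested members: its coefficient of variation was 30.3%, against a median of 44.4% over the 500 genes nearest in level, of which 8.2% varied less.

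Fkbp4, on chromosome 6, 128429735 to 128438677, minus strand, was at 48.5, 54.8, 56.9 and 129 CPM in the vehicle non-stressed group and at 17.5, 56.5, 60.8 and 105 CPM with cypermethrin. With stress it was at 54.4, 61.7, 77.6 and 111 CPM, and with both at 40.4, 51.9, 52.9 and 57.4 CPM. The cypermethrin stressed libraries were the most tightly grouped, with a mean of 50.6 ± 7.25 CPM against 76.2 ± 25.1 CPM in the vehicle stressed libraries (SD, n = 4). Across the 16 libraries Fkbp4 varied against the summed endothelial markers, with a Pearson r of −0.71. Nr3c1 varied against the summed GABAergic markers, with an r of −0.68. Among all pairs of a tested member and a marker list these coefficients had the largest magnitude. The highest and lowest endothelial sums, 838 and 164 CPM, were those of cypermethrin nonstressed replicates 3 and 4, where Fkbp4 was at 17.5 and 105 CPM. Both coefficients are descriptions over libraries that also differ in group and depth, and their part in any difference between groups was not tested.

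The enzymes that set the local supply of corticosterone were barely detectable. Hsd11b1, on chromosome 1, 193221634 to 193264075, minus strand, had 62 counts in 2 libraries, 58 of them in cypermethrin stressed replicate 1 (16.8 CPM) and 4 in vehicle stressed replicate 2 (1.25 CPM), and none in the other 14. It overlaps Lamb3 on the opposite strand, which had no count in either of those libraries. Hsd11b2, on chromosome 8, 105518755 to 105523988, plus strand, had 79 counts in 11 libraries. It was at 0, 0, 1.29 and 3.53 CPM in the vehicle non-stressed group, 0.266, 0.308, 0.504 and 10.7 CPM with cypermethrin, 0, 0, 0.626 and 0.943 CPM with stress, and 0, 0.461, 1.77 and 4.24 CPM with both. In 10 of these 16 libraries the value was at or under the 3-count limit, and all 4 groups overlapped.

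Among the response genes, Sgk1 and Tsc22d3 have letters close to a start site that match the receptor's known recognition sequence in full or in part, and Per1 matches an E box, and these promoters are shown for that reason. RefSeq (build GRCm38.p6) gave 15 promoter windows for 7 of the 10 members, each from 250 bases before to 50 bases after an annotated start, and both strands were searched for 4 motifs. The palindromic glucocorticoid response element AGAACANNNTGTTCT was found in 3 of 32851 windows of that length, 0.00913% of them, and 1 of the 3 belongs to Sgk1. A single arm of that palindrome, AGAACA, was found in 19.0% of all windows and in 4 of the 15 member windows, 3 of Sgk1 and 1 of Tsc22d3, arms inside the full element included. The E box CACGTG, to which clock proteins bind, was found in 7.15% of all windows and in 3 of the 15, of Per1, Fkbp5 and Sgk1. The cyclic AMP response element TGACGTCA was found in 1.79% of all windows and in 0 of the 15. The windows below run 5′ to 3′ along the gene, with matches in capitals. In Sgk1 (chr10:21993640-21993939, plus strand) the second run of capitals is the full element, at position −189 from the start site, and the first run is an E box at −246 overlapping a single arm at −242. In Tsc22d3 (chrX:140600473-140600772, minus strand) the capitals are a single arm at −185, and in Per1 (chr11:69098699-69098998, plus strand) an E box at −166. A match is a description of letters and does not show binding.
Sgk1: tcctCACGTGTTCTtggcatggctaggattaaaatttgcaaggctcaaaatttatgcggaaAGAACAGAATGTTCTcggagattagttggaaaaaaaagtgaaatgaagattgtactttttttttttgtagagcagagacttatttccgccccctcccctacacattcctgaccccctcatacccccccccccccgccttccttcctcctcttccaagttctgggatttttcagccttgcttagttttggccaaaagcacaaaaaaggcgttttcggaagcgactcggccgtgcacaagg
Tsc22d3: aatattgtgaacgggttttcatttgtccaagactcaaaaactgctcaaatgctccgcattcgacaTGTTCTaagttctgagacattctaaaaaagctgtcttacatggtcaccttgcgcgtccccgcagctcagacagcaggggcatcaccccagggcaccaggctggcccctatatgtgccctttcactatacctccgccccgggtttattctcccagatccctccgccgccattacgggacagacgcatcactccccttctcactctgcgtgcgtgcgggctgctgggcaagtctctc
Per1: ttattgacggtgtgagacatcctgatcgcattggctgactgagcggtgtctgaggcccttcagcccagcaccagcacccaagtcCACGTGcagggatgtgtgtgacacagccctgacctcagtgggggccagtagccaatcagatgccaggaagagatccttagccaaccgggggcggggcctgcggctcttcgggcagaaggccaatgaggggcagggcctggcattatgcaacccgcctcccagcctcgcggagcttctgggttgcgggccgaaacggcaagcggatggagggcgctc

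Tsc22d3 encodes GILZ, a leucine zipper protein that relays anti-inflammatory actions of glucocorticoids, and lies on chromosome X, 140539528 to 140600659, minus strand. It was at 2.02, 5.40, 5.80 and 14.2 CPM in the vehicle non-stressed group and at 2.80, 4.52, 7.57 and 11.7 CPM in the cypermethrin non-stressed group. In the stressed groups it was at 8.55, 8.96, 21.3 and 21.9 CPM with vehicle and at 6.98, 8.83, 9.69 and 27.7 CPM with cypermethrin. The 3 libraries above 20 CPM were all stressed and the 5 lowest were all non-stressed, while the 2 sets of 8 libraries overlapped between 6.98 and 14.2 CPM. Those 3 were also all of the first library code, and among them was the library labelled vehicle stressed replicate 1. The stressed libraries of the second code lay between 6.98 and 8.96 CPM, within the range of the non-stressed ones. The gene rested on 6 to 96 counts per library.

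Sgk1 encodes a serum- and glucocorticoid-regulated kinase that acts on ion channels and transporters, and lies on chromosome 10, 21882184 to 21999903, plus strand. It was at 15.5, 21.7, 25.2 and 65.4 CPM in the vehicle non-stressed group, 6.91, 25.2, 27.4 and 38.3 CPM with cypermethrin, 15.3, 16.6, 29.7 and 34.1 CPM with stress, and 12.2, 28.3, 33.6 and 44.2 CPM with both. All 4 groups overlapped, and the 65.4 CPM came from vehicle nonstressed replicate 2, the library with the highest Fkbp4. Per1, a clock gene that glucocorticoids also induce directly, lies on chromosome 11, 69095217 to 69109960, plus strand. It was at 9.62, 17.0, 19.5 and 26.0 CPM in the vehicle non-stressed group, 8.02, 11.2, 13.1 and 19.7 CPM with cypermethrin, 12.5, 14.1, 36.1 and 48.1 CPM with stress, and 9.22, 15.2, 22.1 and 25.7 CPM with both. The top 2 libraries of Per1 were vehicle stressed, and the other 2 of that group lay within the range of the non-stressed libraries. Zbtb16, on chromosome 9, 48654297 to 48836222, minus strand, encodes the zinc finger repressor PLZF and is induced by glucocorticoids in several tissues. It was at 17.2, 19.4, 22.7 and 49.2 CPM in the vehicle non-stressed group, 12.6, 15.1, 23.4 and 64.6 CPM with cypermethrin, 12.5, 18.5, 27.6 and 38.0 CPM with stress, and 14.5, 21.4, 24.5 and 31.4 CPM with both, and all 4 groups overlapped.

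**Figure D2:**
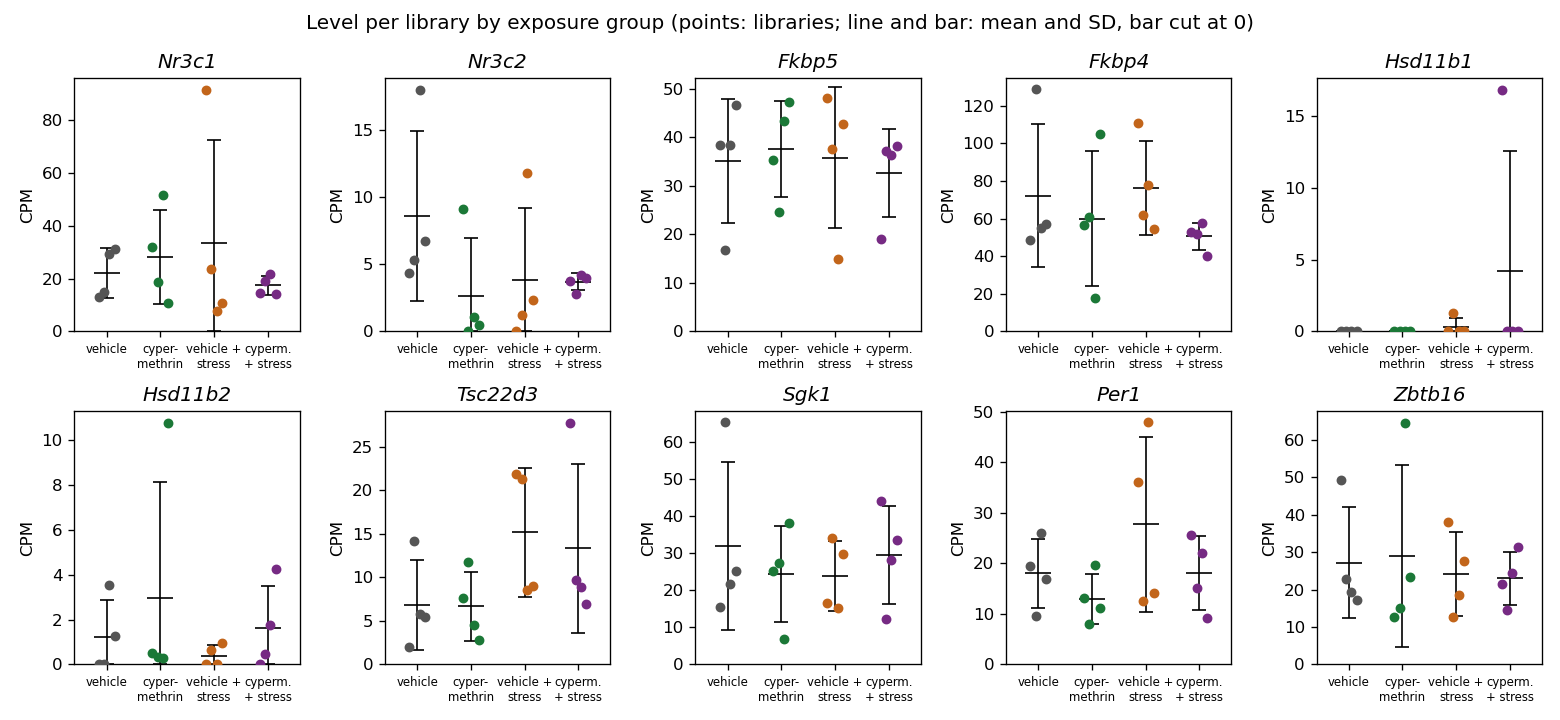
Level of each of the 10 genes in CPM by exposure group, 1 panel per gene with its own axis from 0; points are libraries, horizontal lines are means and bars are SDs over 4 libraries, cut at 0. In the panel of Tsc22d3 the 3 libraries above 20 CPM are stressed and all of the first library code. In that of Nr3c1 a single vehicle stressed library stands at 91.3 CPM.

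Averaged over both gavages, maternal restraint left no glucocorticoid pathway gene past the threshold of an adjusted p under 0.05. The 8 stressed libraries held a mean of 14.2 ± 8.05 CPM of Tsc22d3 against 6.75 ± 4.24 CPM in the 8 non-stressed libraries, and the fitted difference was 1.06 ± 0.53 on the log2 scale (SE), with a 95% interval of −0.025 to 2.15. Its adjusted p was 0.960 in edgeR's quasi-likelihood test with Benjamini-Hochberg adjustment over 13224 genes, and its unadjusted p was 0.0552. Per1 was at 22.9 ± 13.4 CPM with restraint and 15.5 ± 6.10 CPM without (SD), a fitted difference of 0.54 ± 0.40 (SE) with an interval of −0.27 to 1.36. The remaining tested members had fitted differences between −0.36, for Nr3c2, and −0.061, for Nr3c1. The intervals bounded the change at between 0.611-fold and 1.46-fold for Fkbp5, 0.626-fold and 1.42-fold for Fkbp4, and 0.552-fold and 1.65-fold for Sgk1, whereas that of Nr3c2 ran from 0.232-fold to 2.62-fold.

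Of the 8 tested members 0 passed, against 0% of all 13224 genes, and the smallest adjusted p over all genes was 0.960. At an unadjusted p under 0.05 in edgeR's quasi-likelihood test, 0 of 8 members stood beside 679 genes, 5.13% of those tested. DESeq2 and limma voom called 0 genes each, with 817 and 520 of all genes at that unadjusted level. The count of 0 members holds for edgeR with all 16 libraries. With each library left out in turn, the unadjusted p of Tsc22d3 in edgeR's test ran from 0.021 to 0.184. Its lowest adjusted p in these refits was 0.739. The fitted difference was above 0 for 2 members and below 0 for 6, the median being −0.075, beside 6607 genes above and 6617 below 0 in the whole set. The difference of Tsc22d3 was 0.74 without cypermethrin stressed replicate 1, 1.38 without vehicle nonstressed replicate 2, and with the library labelled vehicle stressed replicate 1 left out it was 0.95. By library code it was 1.35 in the first and 0.47 in the second, and with a term for the code in the model it was 0.83. Per1 was at 0.34 without vehicle stressed replicate 3, and Nr3c1, at 0.55 and −1.14 in the first and second library code, moved from −0.061 to −0.68 without the library labelled vehicle stressed replicate 1. Of the 10 pericyte and meningeal markers 8 were fitted lower with restraint, 1 of them at an unadjusted p under 0.05; their sum ran from 1398 to 3630 CPM and from 1749 to 4036 CPM in the vehicle and cypermethrin non-stressed groups, and from 1378 to 2329 CPM and from 2050 to 2839 CPM in the same order with stress. Their part in the values above was not tested.

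Within the vehicle groups alone, restraint likewise left no member past the threshold. Tsc22d3 averaged 15.2 ± 7.42 CPM with restraint and 6.85 ± 5.16 CPM without (SD, n = 4), a fitted log2 difference of 1.14 ± 0.75 (SE). That difference ranged from 0.84 without vehicle nonstressed replicate 1 to 1.76 without vehicle nonstressed replicate 2. With the library labelled vehicle stressed replicate 1 left out it was 0.91. Nr3c1 averaged 33.4 ± 39.2 CPM against 22.1 ± 9.39 CPM, and its fitted difference of 0.58 ± 0.62 (SE) became −0.65 without the library labelled vehicle stressed replicate 1. Nr3c2 averaged 3.84 ± 5.36 CPM against 8.58 ± 6.29 CPM, a difference of −1.15 ± 1.21 (SE) that ranged from −2.74 without vehicle stressed replicate 3 to −0.50 without vehicle nonstressed replicate 3. Per1 had a difference of 0.62 ± 0.56, which was 0.21 without vehicle stressed replicate 3, and Sgk1 one of −0.41 ± 0.54, which was 0.21 without vehicle nonstressed replicate 2. Those of Fkbp5, Fkbp4 and Zbtb16 lay between −0.17 and 0.072. In edgeR's quasi-likelihood test 0 of 8 members passed, against 0% of all genes, and 0 of 8 had an unadjusted p under 0.05, against 672 genes or 5.08%. The 2 groups of 4 libraries did not overlap in 383 of 13224 genes (2.90%) and in 0 of the 8 members. The 9 radial glia and progenitor markers summed to between 606 and 759 CPM in the vehicle non-stressed libraries and to between 808 and 894 CPM in the vehicle stressed ones, without overlap. With cypermethrin the sums overlapped, at 722 to 880 CPM without stress and 688 to 795 CPM with it. Nes and Vim, at means of 393 and 246 CPM over 16 libraries, were the largest parts of the sum. Of the 8 tested markers 3 had a difference above 0 within the vehicle groups and 5 below, and their part in the members' values was not tested. The comparison shares its libraries with the averaged one and is no second test of it.

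Averaged over restraint, cypermethrin left no member past the threshold either. Fkbp4 averaged 55.3 ± 24.4 CPM in the 8 cypermethrin libraries and 74.2 ± 29.9 CPM in the 8 vehicle libraries (SD), a fitted log2 difference of −0.43 ± 0.29 (SE) with an interval of −1.03 to 0.16. It ranged from −0.64 without cypermethrin nonstressed replicate 4 to −0.21 without vehicle nonstressed replicate 2. Per1 averaged 15.5 ± 6.38 CPM against 22.9 ± 13.2 CPM, a difference of −0.54 ± 0.40 with an interval of −1.36 to 0.28, and −0.34 without vehicle stressed replicate 3. Nr3c2 averaged 3.16 ± 2.90 CPM against 6.21 ± 5.98 CPM, a difference of −0.86 ± 0.85 that ranged from −2.01 without cypermethrin nonstressed replicate 1 to −0.070 without vehicle stressed replicate 3. The receptor Nr3c1 had a difference of −0.28, which was 0.34 without the library labelled vehicle stressed replicate 1, and the other 4 tested members lay between −0.11 and 0.013. In edgeR's quasi-likelihood test 0 of 8 members passed, against 0% of 13224 genes, with a smallest adjusted p of 0.545 over all genes; 0 of 8 had an unadjusted p under 0.05, against 607 genes or 4.59%. DESeq2 called 1 gene, Cpeb1, which is no member. Of the 10 pericyte and meningeal markers 9 were fitted higher with cypermethrin, 2 of them at an unadjusted p under 0.05, and their part in these values was not tested.

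The interaction asks whether restraint acted differently under cypermethrin than under vehicle, and no member passed its test. The fitted difference of differences was −1.28 ± 0.88 (SE, log2 scale) for Nr3c1, with an unadjusted p of 0.156 in edgeR's quasi-likelihood test, and it became −0.055 without the library labelled vehicle stressed replicate 1. For Nr3c2 it was 1.59 ± 1.70, from 0.95 without vehicle nonstressed replicate 3 to 3.88 without cypermethrin nonstressed replicate 1. For Sgk1 it was 0.69 ± 0.77, from 0.073 without vehicle nonstressed replicate 2 to 0.98 without cypermethrin nonstressed replicate 4. For the other 5 tested members it lay between −0.31 and −0.15, and with the library labelled vehicle stressed replicate 1 left out, between −0.080 (Fkbp4) and 0.13 (Zbtb16). The intervals were wide: that of Nr3c1 ran from −3.08 to 0.52 and that of Tsc22d3 from −2.31 to 2.01. In that test 0 of 8 members passed, against 0% of all genes, and 0 of 8 had an unadjusted p under 0.05, against 622 genes or 4.7%.

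**Figure D3:**
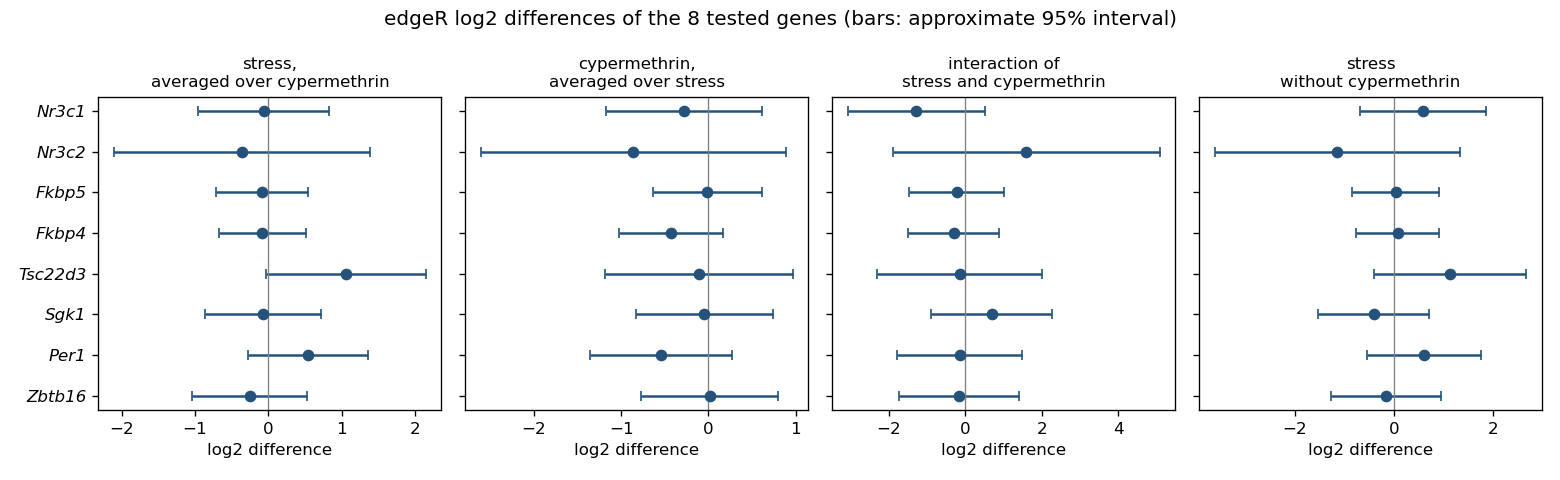
Fitted log2 differences of the 8 tested genes in the 4 comparisons, 1 panel each with its own horizontal axis; points are edgeR estimates, bars are approximate 95% intervals, and the vertical line marks 0. Every interval includes 0, and that of Tsc22d3 for restraint averaged over both gavages runs from −0.025 to 2.15.

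Levels of the machinery around the receptor differed widely, from the abundant HSP90 genes down to the co-chaperone Stub1, at a mean of 1.87 CPM. HSP90, the chaperone that holds the receptor ready to bind hormone, was represented by Hsp90ab1 at 1594 ± 181 CPM and Hsp90aa1 at 625 ± 82.1 CPM over 16 libraries (SD). Of 15 listed chaperones and co-chaperones 14 were tested, and with restraint averaged over both gavages 6 had a fitted difference above 0 and 8 below, the median being −0.040. Cdc37, which delivers client kinases to HSP90, averaged 58.4 ± 35.7 CPM with restraint and 38.0 ± 11.1 CPM without (SD), a log2 difference of 0.56 ± 0.29 (SE) that was 0.34 without the library labelled vehicle stressed replicate 1. Dynll1, a dynein light chain, had a difference of −0.23 ± 0.13 and Hsp90ab1 one of 0.14 ± 0.092. Of 16 coregulators, the proteins through which bound receptor acts on chromatin, 11 lay above 0 and 5 below, around a median of 0.14. The corepressor scaffold Sin3a had a difference of 0.45 ± 0.24, and the remodelling ATPase Smarca4 one of 0.25 ± 0.14; leaving out the library labelled vehicle stressed replicate 1 gave 0.21 and 0.17. Within the second library code that of Sin3a was 0.063. Within the vehicle groups Ncor1, a corepressor, had a difference of 0.55 ± 0.22, which was 0.11 without the library labelled vehicle stressed replicate 1, and the coactivator Ncoa2 one of 0.40 ± 0.20, which was 0.24 without vehicle stressed replicate 3. None of these genes passed in edgeR's quasi-likelihood test, where 0% of all genes did.

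The wider set of glucocorticoid-induced genes was fitted in both directions. Of 30 listed targets 23 were tested, and their differences with restraint were above 0 for 10 and below 0 for 13, around a median of −0.075. A single one of the 23 had an unadjusted p under 0.05, against 5.13% of all genes. It was Txnip, which encodes a thioredoxin-binding regulator of glucose uptake. Txnip ran from 50.4 to 93.0 CPM, with a median of 77.7 CPM, in the 8 stressed libraries, and from 37.6 to 66.6 CPM, with a median of 44.9 CPM, in the 8 non-stressed ones. Of the stressed libraries 2 lay below the highest non-stressed one. The fitted log2 difference was 0.66 ± 0.22 (SE), with an unadjusted p of 0.00582 and an adjusted p of 0.960 in edgeR's quasi-likelihood test with Benjamini-Hochberg adjustment. It ranged from 0.60 to 0.74 when each library was left out in turn and was 0.61 and 0.57 within the first and second library code. These refits reuse the libraries whose p-values named Txnip, so they are descriptions and no separate support. Bcl6, a transcriptional repressor, differed by −1.01 ± 0.50 within the vehicle groups, from 39.4 ± 17.3 to 19.6 ± 12.5 CPM (SD, n = 4), and by −0.17 ± 0.35 in the averaged comparison. The former was −0.66 without vehicle nonstressed replicate 1, and leaving out the library labelled vehicle stressed replicate 1 gave −1.51. Cebpd, an early response transcription factor, rested on 130 counts in all: its fitted difference was 1.70 ± 1.14 in the averaged comparison, where the means were 2.28 ± 3.00 CPM with restraint and 2.08 ± 4.12 CPM without (SD), and −1.36 ± 1.50 within the vehicle groups. The averaged value ran from 0.95 without cypermethrin stressed replicate 1 to 2.53 without cypermethrin nonstressed replicate 2. Of 8 mineralocorticoid targets 4 were tested, all with a difference above 0 for restraint, among them Atp1b1, which encodes a beta subunit of the sodium pump, at 0.32 ± 0.30, or 0.13 without the library labelled vehicle stressed replicate 1, and Usp2, a deubiquitinase, at 1.59 ± 0.92, which was −0.026 without cypermethrin stressed replicate 2. No listed target passed in edgeR's test.

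The 8 tested members did not vary as a block from embryo to embryo. Among their 28 pairs the Pearson r of log2 CPM over 16 libraries had a median of −0.11, with 13 pairs above 0, from −0.46 for Sgk1 with Per1 to 0.58 for Fkbp4 with Sgk1. The receptor deviated most from its own mean in the library labelled vehicle stressed replicate 1, by 2.12 on the log2 scale, and Tsc22d3 and Per1 were also above their means there, by 1.30 and 1.06, while Sgk1 was below, by −0.53. In vehicle stressed replicate 3 Per1 was 1.47 above its mean and Nr3c1 and Fkbp5 deviated by −1.33 and −1.13, so that high Per1 accompanied high receptor transcript in one library and low in another. In cypermethrin stressed replicate 1 Tsc22d3 was 1.64 above its mean and Fkbp5, another response gene, deviated by −0.79.

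**Figure D4:**
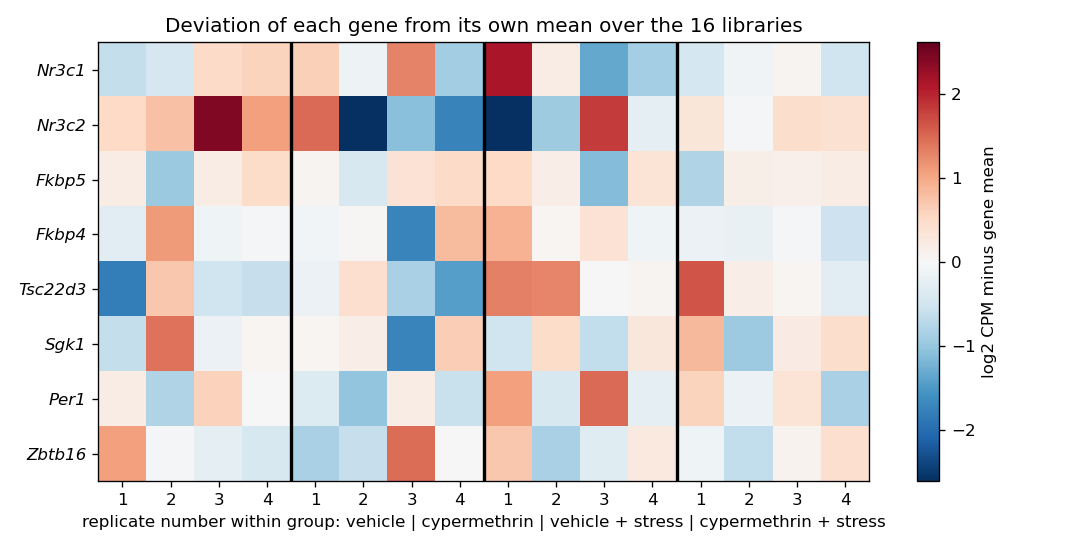
Deviation of each of the 8 tested genes from its own mean over 16 libraries, in log2 CPM, with libraries as columns ordered by group and replicate number; red is above and blue below the mean. No column is of 1 colour throughout, and the Nr3c1 cell of the library labelled vehicle stressed replicate 1 reads 2.12.

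Outside the pathway, the genes with the pattern most like a member's were those with the highest Pearson r of log2 CPM over the 16 libraries, among 7404 or 7405 genes with a mean of at least 20 CPM. For Nr3c1 these were Rheb (0.88), Tet1 (0.87) and Timmdc1 (0.87), and for Tsc22d3 Gbf1 (0.85), Lats1 (0.84) and Arsb (0.82). For Fkbp5 they were Uspl1 (0.88), Zfp943 (0.84) and Crtc2 (0.83), and for Fkbp4 Tnrc6a (0.84), Slc38a9 (0.83) and Gpr137c (0.83). Sgk1 was closest to Mrps9 (0.87), Sfxn1 (0.85) and Nck2 (0.85), Per1 to Slc39a11 (0.84), Rnf152 (0.82) and Mta1 (0.78), Zbtb16 to Tceanc2 (0.83), Arhgef40 (0.79) and Pacsin2 (0.78), and Nr3c2 to Znrf3 (0.79), Cep112 (0.78) and Pfkp (0.77). No gene of the pathway lists was among these 24. The coefficients are the top of all those genes and are given as descriptions; the median r over the genes compared lay between −0.021 and 0.016.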

How the data were processed

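RNA of laser-captured cells from paraformaldehyde-fixed tissue was made into total RNA libraries with the Trio RNAseq kit, per the labels. The deposited values are raw gene counts, which the authors made from reads aligned to mm10 with STAR 2.5, per the submitters' processing notes. Not given in the sources used here are the counting program, its annotation and its use of strand, so reads of overlapping genes on opposite strands may not be separated. Counts from low-input libraries without molecular identifiers may include amplification copies. From these counts, edgeR 4.0.16 (R 4.3.3) fitted 1 quasi-likelihood model over all 16 libraries and 4 groups, with TMM scaling, filterByExpr at a count minimum of 10 and robust dispersion; p-values were Benjamini-Hochberg adjusted over 13224 genes, with a threshold of 0.05. The scripts were tested on simulated data. CPM are over TMM-scaled totals, and log2 CPM used a prior count of 2. Each library is 1 embryo of its own litter, and replicate numbers follow the order of deposit. All 10 members, and per pathway list the 2 tested genes with the smallest unadjusted p in each of the 2 restraint comparisons, were named, except 1 gene that is not reported here. Members and lists were chosen with earlier results of these data known. Alternatives were DESeq2 1.42.0, limma 3.58.1 voom, RLE factors, no scaling factors, no filter, a term for the library code, a fit of only the groups compared, and leaving out each library; fits within each library code were added after seeing the data. The lowest chi-square per gene between any 2 libraries was 6.13, above sampling noise, so none was counted as a repeat.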

Additional observations from a re-analysis of the deposited data

Results flagged for a closer look

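Within single groups of 4 libraries, 8 of 38 combinations of gene and group had 1 library far from the other 3 by Dixon's criterion. Chance meets it in about 1 in 20 groups of normally distributed values, a rate that 8 of 38 cannot be set against here, since CPM of low genes are skewed and a group with 3 libraries at 0 and 1 with a count meets it by construction.

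Among the receptors, Nr3c2 was at 17.9 CPM in vehicle nonstressed replicate 3, where the next library of its group was at 6.69 CPM, and at 9.08 CPM in cypermethrin nonstressed replicate 1, where the next was at 1.06 CPM. Among the co-chaperones, Fkbp4 was at 129 CPM in vehicle nonstressed replicate 2 against a next value of 56.9 CPM, and Fkbp5 was at 19.1 CPM in cypermethrin stressed replicate 1, below a next value of 36.4 CPM.

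Of the steroid-converting enzymes, Hsd11b1 was at 16.8 CPM in cypermethrin stressed replicate 1 and at 1.25 CPM in vehicle stressed replicate 2, with no count in the other libraries of either group, and Hsd11b2 was at 10.7 CPM in cypermethrin nonstressed replicate 4 against a next value of 0.504 CPM. Of the response genes, Tsc22d3 was at 27.7 CPM in cypermethrin stressed replicate 1 against a next value of 9.69 CPM. That library thus held the outlying values of Hsd11b1, Fkbp5 and Tsc22d3 of its group.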

How the results depend on the processing

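No member passed in any comparison under any alternative: over 696 recomputed values of the 32 member differences the lowest adjusted p was 0.710, 597 kept their sign and 99, mostly of differences near 0, changed it. The cause of each change was not tested. Depth limits the lowest genes: both Hsd11b genes lie at or near the 3-count limit in most libraries. Nr3c2, with a count in 14 of 16 libraries and a median of 3.87 CPM, lay above it in most. For Fkbp5, with 42 to 181 counts per library, the interval for restraint still ran from 0.611-fold to 1.46-fold. Using library totals alone moved the median interaction over all genes from −0.041 to 0.088. No paired analysis was possible because the replicate numbers are only the order of deposit.

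Counts of called genes changed as follows. DESeq2 called 1 gene for cypermethrin. Leaving out single libraries gave 0 to 1 there (Dnajc1, without vehicle stressed replicate 3). The genes called within the first library code, counted next, included Xist in each comparison. Its log2 differences were 7.98 for restraint, −7.93 for cypermethrin and 11.1 for restraint with vehicle. That code holds the library labelled vehicle stressed replicate 1, with its 9521 counts of Xist. The part of that library in the other calls was not tested. Within the first library code, edgeR called 7 genes for restraint, 14 for cypermethrin and 45 for restraint with vehicle, from 7 libraries and none of them a member.

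For restraint averaged over both gavages, the first library code gave Nr3c1 0.55, Fkbp5 0.15, Abcc1 0.55, Crhr1 −0.78 and Nr3c2 −2.14, the second Nr3c1 −1.14, Nr3c2 1.04, Sgk1 0.15 and Zbtb16 0.014, and limma voom Fkbp4 0.088, Sgk1 0.11 and Crhr1 −0.050 (log2 here and below). Leaving out each library in turn gave Nr3c1 −0.68 to 0.17, Nr3c2 −1.15 to 0.79, Fkbp5 −0.20 to 0.043, Fkbp4 −0.24 to 0.14, Sgk1 −0.22 to 0.24, Zbtb16 −0.40 to 0.13, Usp2 −0.026 to 1.93 and Abcc1 −0.47 to 0.088.

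For cypermethrin, the first code gave Nr3c2 1.57 and Zbtb16 −0.996, the second Nr3c1 0.39, Fkbp5 0.11, Tsc22d3 0.020 and Sgk1 0.25. limma voom gave Nr3c1 0.14, Fkbp5 0.048 and Zbtb16 −0.0047, and the code as a term Tsc22d3 0.016, Sgk1 0.0017 and Zbtb16 −0.027. Leaving out each library gave Nr3c1 −0.51 to 0.34, Fkbp5 −0.14 to 0.078, Tsc22d3 −0.43 to 0.20, Sgk1 −0.19 to 0.26 and Zbtb16 −0.37 to 0.24.

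For the interaction, limma voom gave Fkbp4 0.064, Per1 0.048 and Zbtb16 0.048, and library totals Per1 0.030 and Zbtb16 0.024. Leaving out each library gave Fkbp5 −0.49 to 9.9e-05, Fkbp4 −0.75 to 0.092, Tsc22d3 −0.79 to 0.26, Per1 −0.39 to 0.26 and Zbtb16 −0.63 to 0.59.

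For restraint with vehicle, the first code gave Fkbp4 −0.046 and Crhr1 0.18, the second Nr3c1 −1.68, Fkbp5 −0.55 and Zbtb16 0.33, limma voom Nr3c1 −0.24, the code as a term Crhr1 0.0098, and library totals Fkbp5 −0.050 and Fkbp4 −0.027. Leaving out each library gave Nr3c1 −0.65 to 0.91, Fkbp5 −0.20 to 0.29, Fkbp4 −0.16 to 0.51, Sgk1 −0.64 to 0.21, Zbtb16 −0.46 to 0.29 and Crhr1 −0.59 to 0.39.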

Other observations

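Of 12 genes of steroid synthesis, transport and access, 6 had counts in 15 or 16 libraries and 4 had none. Star, whose product moves cholesterol into mitochondria at the start of steroid synthesis, had counts in 16 of 16 libraries, at 16.5 ± 10.6 CPM (SD), and Cyp11a1, the next enzyme, had 71 counts in 10 libraries. Cyp21a1 and Cyp11b1, which complete the synthesis of corticosterone, had no count in any library, and neither had Serpina6, which encodes the corticosteroid-binding protein of plasma. H6pd, which supplies the cofactor of HSD11B1, was at 8.85 ± 7.80 CPM. Por, an electron donor of cytochrome P450 enzymes, differed by −0.34 ± 0.31 (SE, log2) with restraint, and the steroid exporters Abcb1a and Abcc1 by 0.052 ± 0.48 and −0.21 ± 0.32, the latter −0.47 without the library labelled vehicle stressed replicate 1. Of the 12 genes of this list 6 were tested, 2 with a difference above 0 and 4 below for restraint, and 0 passed in edgeR's quasi-likelihood test.

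Of 10 peptides and receptors of the stress axis, Crh, Crhr2 and Ucn had no count, and Mc2r, Avp and Avpr1b had 1 count each. Pomc, the precursor of corticotropin, had 87 counts in 11 libraries, Avpr1a 25 counts in 3 and Crhbp 18 counts in 4. Crhr1, the receptor of corticotropin-releasing hormone, was the single gene of this list with enough counts to be tested, at 129 counts in 12 libraries, and differed by 0.66 ± 1.02 (SE, log2) with restraint and by −0.024 ± 1.42 within the vehicle groups, and leaving out the library labelled vehicle stressed replicate 1 gave 0.37 and −0.59.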
